A study of Mus musculus with 2 samples.

Results

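The genes described here are the ephrins and their Eph receptors, the Slits and their Robo receptors, and the netrins with the netrin-G proteins, the Unc5 receptors and Dcc, all in mouse cerebral cortex. They were chosen by symbol alone, from the annotated names of these families, and 40 genes matched out of the 55536 in the deposited gene tables. They comprised 9 EphA and 5 EphB receptors, 5 ephrin-A and 3 ephrin-B genes, 3 Slit and 4 Robo genes, 4 secreted netrins, 2 netrin-G genes, 4 Unc5 genes and Dcc. Expression was measured by total RNA sequencing with strand information, after removal of ribosomal RNA, from 300 ng of RNA per library with ERCC spike-in RNAs added. Both libraries belonged to 1 group: left cerebral cortex of 14-day-old female mice of strain B6CASTF1/J, the first-generation hybrid of C57BL/6J and CAST/EiJ, with no treatment and no engineered allele named in the labels. The labels call the 2 libraries biological replicates, give them the same donor entry and speak of 3 females in the description of both. None of these entries settles if 1 library is 1 mouse or a pool, so the spread between the libraries may be smaller or larger than that between single animals.

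Guidance molecules steer growing axons and migrating neurons by attraction or repulsion, and many stay in use at synapses once wiring is complete. Ephrins are held on the cell surface, the A type by a lipid anchor and the B type by a transmembrane segment, and they bind Eph receptor tyrosine kinases on neighbouring cells, with signals running both ways. Slits are large secreted proteins that repel axons through Robo receptors. Netrins are laminin-related secreted cues that attract through Dcc and repel through Unc5 receptors, while the related netrin-G proteins are anchored to the membrane and bind netrin-G ligands of the Lrrc4 family across the synapse. At this age the long tracts of the mouse cortex are in place, and synapse formation and the start of myelination are under way.

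The gene tables held 33362704 counts in replicate 1 and 32013997 in replicate 2, of which the 40 genes took 0.227% and 0.240%. All 9 excitatory neuron markers stood at 1 TPM or more in both libraries, with a summed level of 3392 and 3176 TPM, so the labelled tissue and its markers did not disagree. All 9 striatal and 6 of 7 hippocampal markers reached 1 TPM too, so this bar does not tell cortex from other brain regions. The libraries differed in markers of other cells and tissues: the summed level of 10 markers of myelinating oligodendrocytes was 2415 TPM in replicate 1 and 1348 in replicate 2, that of 9 striatal markers was 359 and 234, and that of 8 choroid plexus markers was 14.5 and 142. Most of the choroid plexus sum was Ttr, at 9.86 and 131 TPM, and 5 of those 8 markers were below 1 TPM in at least 1 library. No marker in these lists was listed at 0. In a piece of tissue, fewer cells of a type and less RNA per cell cannot be told apart. TPM counts transcripts in a fixed total after dividing by their length, so it allows comparison between genes. Between libraries it also moves with the rest of that total and with the assigned transcript lengths. In 8 of the 40 genes, Dcc among them, TPM and the scaled counts differed between the libraries in opposite directions.

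Of the 40 genes, 36 reached 1 TPM in both libraries, 25 had a mean of 10 TPM or more and 4 a mean of 50 TPM or more. Those 4 were Epha4, Robo2, Ephb6 and Epha5, all of them receptors. Among the 12959 protein-coding genes detected at 1 TPM in both libraries, 19 of the 40 ranked above the median. The 4 genes below the threshold were Epha1 with 16 and 10 counts, Epha2 with 73 and 71, Efna4 with 10 and 9, and Ntn5 with 27 and 13. Epha2 was a border case, at 0.90 TPM in replicate 1 and 1.02 in replicate 2.

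**Figure D1:**
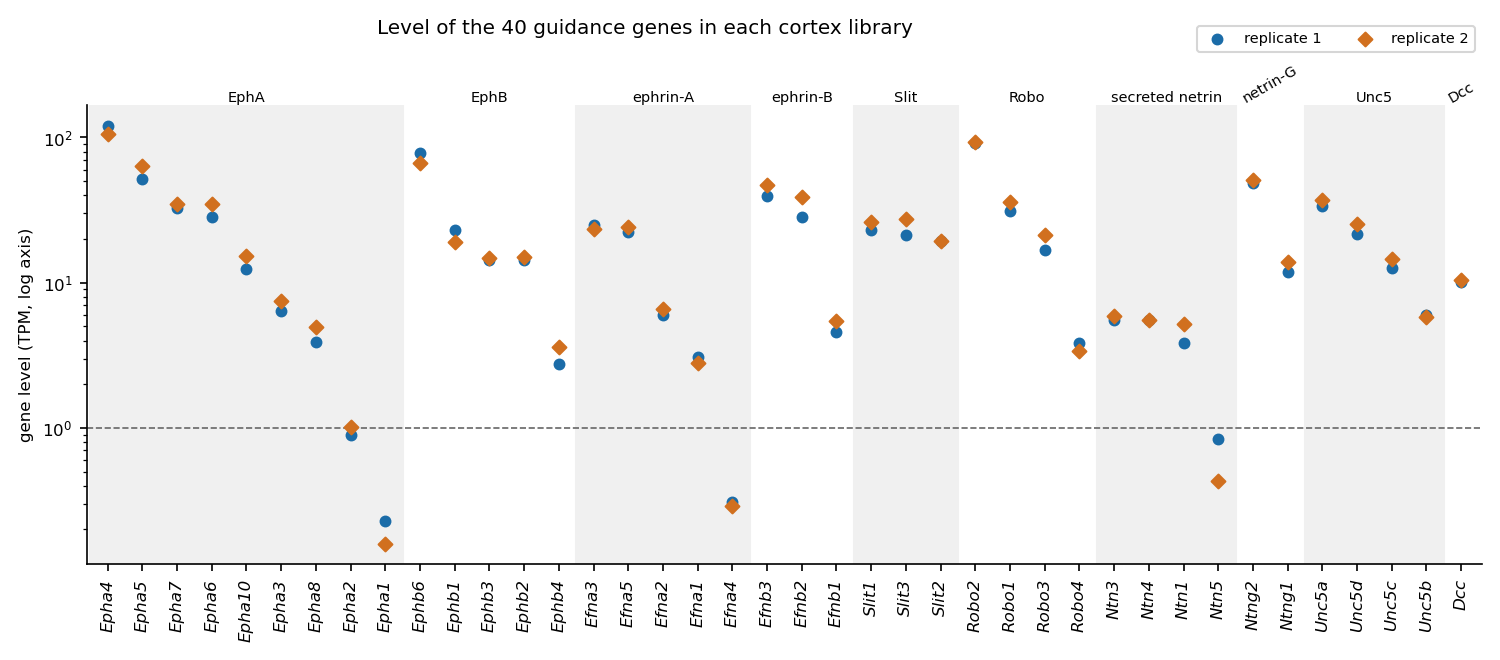
Level of each of the 40 genes in TPM on a log axis, by family, with circles for replicate 1, diamonds for replicate 2 and a dashed line at 1 TPM. Epha4 and Robo2 stand highest, and Epha1, Efna4 and Ntn5 lie below the line in both libraries.

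The EphA receptors were the most abundant family, with a summed level of 262 TPM ± 8.45 (SD, n = 2). Epha4, a receptor that binds ephrins of both types, at chr1:77367185-77515088 on mm10, stood at 119.6 TPM in replicate 1 and 106 in replicate 2, which placed it at rank 838 among detected protein-coding genes. It supplied 43.1% of the family's TPM. Epha5, a receptor studied in cortical and hippocampal wiring, measured 51.5 and 63.5 TPM. Epha7, which has forms with and without a kinase domain, measured 32.4 and 34.8, and Epha6 measured 28.3 and 34.6. The remaining receptors were far lower than Epha4 in both libraries. Epha10, which is known to lack kinase activity, stood at 12.5 and 15.4 TPM, Epha3 at 6.38 and 7.50, and Epha8 at 3.92 and 4.98. Epha1 stood at 0.23 and 0.16 TPM.

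Most of the Epha7 level in TPM was assigned to transcripts that end before the kinase domain. The annotated full-length form, Epha7-201, codes for 998 amino acids, while Epha7-202 codes for 610 and Epha7-204 for 626. The first 1798 coding bases are the same in all of them, which is 60.1% of the full-length coding sequence, and the forms then part. The bases around that point are printed here because they decide which protein is made. The last 30 shared bases are in lower case and the bases of each form after the split are in capitals, all of them in the annotated transcripts of GENCODE M21 on mm10, plus strand. For the full-length form only the next 60 bases are shown, while for the short forms the sequence runs to the last base before the stop codon, at chr4:28946219-28946250 for Epha7-202 and chr4:28966523-28966602 for Epha7-204.
Epha7-201: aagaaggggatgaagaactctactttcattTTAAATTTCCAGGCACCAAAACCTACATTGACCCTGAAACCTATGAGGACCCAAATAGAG
Epha7-202: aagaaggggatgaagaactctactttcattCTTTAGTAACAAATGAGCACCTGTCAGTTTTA
Epha7-204: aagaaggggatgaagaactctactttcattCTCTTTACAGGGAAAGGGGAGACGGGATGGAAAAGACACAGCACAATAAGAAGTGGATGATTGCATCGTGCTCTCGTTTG
Both short forms together were estimated at 19.05 TPM in replicate 1 and 19.99 in replicate 2. The 2 full-length forms, Epha7-201 and Epha7-203, came to 7.85 and 10.5 TPM. The short forms thus held 58.1% ± 0.906 (SD, n = 2) of the gene's TPM and the full-length forms 27.1% ± 4.14, and the rest was in transcripts without a coding sequence. In the second transcript table, made directly from the reads, the shares were 53.0% ± 0.541 and 28.0% ± 4.37. The short forms exceeded the full-length ones in both libraries and both tables, by 1.69 to 2.43 times.

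Among the EphB receptors Ephb6 stood apart. This receptor lacks kinase activity, and it measured 77.6 TPM in replicate 1 and 67.1 in replicate 2, which was 57.5% of the family's summed level of 126 TPM ± 8.70 (SD, n = 2). Ephb1, an active kinase, measured 22.9 and 19.1 TPM. Ephb2 and Ephb3, receptors studied for callosal axons and excitatory synapses, were close to each other, at 14.3 and 14.9 TPM and at 14.4 and 14.9 TPM. Ephb4, the partner of ephrin-B2 in vessels, was the lowest of the family at 2.75 and 3.61 TPM. The EphA family exceeded the EphB family 2.09-fold ± 0.212 (SD, n = 2) in summed TPM. Part of the Ephb6 level, 26.9% ± 3.66 in the first table, lay in Ephb6-203, a fragment of 459 bases, and the full coding form Ephb6-201 held 73.1%.

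The ephrin-A genes had a summed level of 57.0 TPM ± 0.184 (SD, n = 2), almost the same in both libraries. Efna3, a ligand known from astrocytes at hippocampal synapses, measured 25.1 and 23.5 TPM, and Efna5, a ligand that shapes topographic maps, measured 22.4 and 24.03. These 2 genes supplied most of the sum. Efna2 was lower, at 5.96 and 6.59 TPM, Efna1 lower again at 3.07 and 2.78, and Efna4 stood at 0.31 and 0.29. Efna1, Efna3 and Efna4 lie side by side on chromosome 3 on the same strand, and their levels were far apart. Efna3 exceeded its neighbour Efna4, 10.4 kb away, 81.0-fold, and exceeded Efna1, 32.8 kb away on the other side, 8.31-fold.

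Efna3 and Efna5 are each made with and without 1 coding exon, and both forms were present. The exons are shown because their use sets which ligand the cell displays. The exon is in capitals, with 12 coding bases of the neighbouring exons in lower case on each side. The Efna3 exon lies at chr3:89315808-89315885 and the Efna5 exon at chr17:62613316-62613396, both on the minus strand.
Efna3 exon of 78 bases: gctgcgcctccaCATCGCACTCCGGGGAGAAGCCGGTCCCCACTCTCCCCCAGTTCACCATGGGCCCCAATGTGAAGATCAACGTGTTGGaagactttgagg
Efna5 exon of 81 bases: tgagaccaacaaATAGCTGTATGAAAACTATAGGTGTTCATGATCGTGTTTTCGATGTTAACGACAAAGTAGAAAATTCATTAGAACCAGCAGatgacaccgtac
The form with the Efna3 exon held 83.5% of the TPM of both forms in replicate 1 and 82.9% in replicate 2. For Efna5 the share was 69.5% and 59.4%, a wider gap between the libraries. In the second table the means were 75.3% ± 1.110 for Efna3 and 71.6% ± 10.6 for Efna5 (SD, n = 2), so the form with the exon was the larger one throughout.

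The ephrin-B genes had a summed level of 82.1 TPM ± 13.5 (SD, n = 2), in proportion the widest gap between libraries among the 10 families, at 72.6 TPM in replicate 1 and 91.7 in replicate 2. Efnb3, the ephrin that Epha4 meets at the midline of the spinal cord, measured 39.5 and 47.3 TPM and had a single annotated transcript. Efnb2, also a ligand of arterial endothelium, measured 28.5 and 38.9. Efnb1, encoded on the X chromosome, measured 4.60 and 5.48. The 3 proteins share a short cytoplasmic end that binds PDZ domain proteins, and the last 45 coding bases before the stop codon are shown to compare them. They come from the last coding exons, at chrX:99147115-99147524 for Efnb1 (plus strand), chr8:8620591-8620976 for Efnb2 (minus) and chr11:69555863-69556269 for Efnb3 (minus), and bases identical in all 3 are in capitals.
Efnb1: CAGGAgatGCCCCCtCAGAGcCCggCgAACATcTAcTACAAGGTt
Efnb2: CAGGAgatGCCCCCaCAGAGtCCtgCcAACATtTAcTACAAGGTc
Efnb3: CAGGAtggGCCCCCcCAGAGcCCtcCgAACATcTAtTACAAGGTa
Of these 45 bases, 34 were identical in all 3 genes, with 39 shared by Efnb1 and Efnb2 and 35 by Efnb2 and Efnb3. Efnb2 also has a coding exon of 93 bases at chr8:8623148-8623240 that can be skipped.
Efnb2 exon of 93 bases: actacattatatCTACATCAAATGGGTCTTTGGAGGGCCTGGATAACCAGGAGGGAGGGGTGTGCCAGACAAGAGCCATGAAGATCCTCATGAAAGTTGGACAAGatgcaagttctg
The form with that exon held 86.3% and 83.7% of the TPM of both forms in the 2 libraries, and 73.3% ± 1.51 (SD, n = 2) in the second table. The form without it, Efnb2-202, is annotated only as a fragment of 652 bases and had 43.7 and 67.6 counts.

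The 3 Slit genes were expressed at similar levels, with a summed level of 68.3 TPM ± 6.72 (SD, n = 2). Slit1, the Slit studied mostly in neurons, measured 23.0 and 26.3 TPM. Slit3, which is also made outside the nervous system, measured 21.2 and 27.6, and Slit2, a repellent for many forebrain axons, 19.4 and 19.2. No Slit supplied more than 36.0% of the sum. Slit2 had 23 annotated transcripts and no leading one: Slit2-216 held 24.8% of its TPM in the first table and 24.7% in the second. The coding forms differ, among other things, by 3 short exons, which are shown because each adds only a few amino acids to a large secreted protein. They lie at chr5:48191003-48191014, chr5:48220967-48220990 and chr5:48263641-48263667, on the plus strand, with the exon in capitals.
Slit2 exon of 12 bases: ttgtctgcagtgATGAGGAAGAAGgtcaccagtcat
Slit2 exon of 24 bases: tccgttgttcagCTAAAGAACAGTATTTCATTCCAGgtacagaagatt
Slit2 exon of 27 bases: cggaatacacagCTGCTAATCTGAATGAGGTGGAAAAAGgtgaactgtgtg
The exon of 12 bases was in 64.0% and 60.5% of the TPM of the forms compared. The exon of 24 bases was in 18.2% and 26.9%, and the one of 27 bases in 17.8% and 16.1%. The first exon was used in most of the estimated RNA and the other two in a minority, in both libraries and, at 73.3%, 34.3% and 18.4%, in the second table as well.

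The Robo receptors were led by Robo2 (chr16:73891839-74411825), at 91.4 TPM in replicate 1 and 93.2 in replicate 2. Robo2 was the second most abundant of the 40 genes and supplied 62.2% of the family's 148 TPM ± 7.51 (SD, n = 2). Robo1, its neighbour on chromosome 16 at a distance of 846 kb, measured 31.1 and 35.8 TPM. Robo3, a divergent receptor known from commissural axons of the hindbrain, measured 16.9 and 21.3 TPM. Of that Robo3 level, 37.2% and 40.7% lay in transcripts annotated with a retained intron, and 57.4% and 46.9% in coding transcripts. Robo4, the receptor of endothelial cells, lies only 0.554 kb from Robo3 on the opposite strand and measured 3.85 and 3.37 TPM. The 8 endothelial markers summed to 127 and 122.8 TPM.

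The Robo2 level was spread over several coding forms. The highest transcript, Robo2-202, held 31.7% ± 0.73 (SD, n = 2) of its TPM in the first table and 31.6% ± 2.43 in the second. An exon of 12 bases at chr16:74008775-74008786 on the minus strand was in 47.8% and 47.0% of the TPM of the forms compared, and in 51.4% ± 1.69 in the second table.
Robo2 exon of 12 bases: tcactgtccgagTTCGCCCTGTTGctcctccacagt
An exon of 126 bases was in 21.8% and 23.9%, and one of 273 bases in 29.9% and 31.1%. The short exon was thus close to evenly used and the other two were mostly skipped, with less than 3 percentage points between libraries. A non-coding fragment of 430 bases, Robo2-207, held 15.1% of the gene's TPM in the first table and none in the second. In Robo1 the leading transcript differed between the tables: Robo1-206 with 39.3% in the first and the fragment Robo1-205 of 546 bases with 39.8% in the second.

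The secreted netrins were the least abundant family of ligands, with a summed level of 16.4 TPM ± 0.983 (SD, n = 2). Ntn1, the classical attractant for commissural axons, measured 3.83 and 5.23 TPM. Ntn3 measured 5.53 and 5.94, and Ntn4, a component of basement membranes, 5.54 and 5.53. Ntn5 stood at 0.84 and 0.43 TPM, from 27 and 13 counts. The Ntn3 gene overlaps Tbc1d24 on the same strand, which had 4304 and 4095 counts, and no source used here says how reads were split between them.

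The netrin-G genes exceeded the secreted netrins 3.81-fold ± 0.055 (SD, n = 2) in summed TPM. Ntng2 measured 48.6 and 50.7 TPM and Ntng1 11.9 and 13.9, and these proteins mark separate sets of presynaptic axons. The largest transcript of each gene in the mean of the libraries was annotated as a target of nonsense-mediated decay, the pathway that removes RNAs with an early stop codon. For Ntng2 (chr2:29194541-29253005, minus strand) this was Ntng2-211, at 23.1 and 22.3 TPM, against 21.4 and 22.2 TPM of the coding form Ntng2-204. Its share was 45.8% ± 2.49 in the first table and 40.7% ± 1.00 in the second. The annotated Ntng2-204 has 1593 bases, 1590 of them coding, while Ntng2-211 has 1957 bases, 1104 of them coding. Reads from outside the coding sequence can thus hardly be assigned to Ntng2-204, and their part in these shares was not tested. The 2 forms share their first 1032 coding bases and then part, as shown with the last 30 shared bases in lower case and the bases after the split in capitals.
Ntng2-211: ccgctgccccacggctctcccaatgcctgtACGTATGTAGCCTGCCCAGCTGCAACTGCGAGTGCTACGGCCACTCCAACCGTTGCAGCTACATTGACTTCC
Ntng2-204: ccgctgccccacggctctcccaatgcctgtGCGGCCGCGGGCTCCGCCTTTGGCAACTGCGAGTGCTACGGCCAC
For Ntng2-211 the sequence runs to the end of its annotated coding sequence, 72 bases after the split, and for Ntng2-204 the next 45 bases are shown. Another transcript, 6530402F18Rik, overlaps Ntng2 on the same strand with 1233 and 1258 counts. For Ntng1 the form annotated for decay was Ntng1-206, with 29.0% and 27.7%, and in replicate 2 the coding form Ntng1-208 was above it at 30.3%. The same limit holds for Ntng1-202 and Ntng1-210, with 1617 of 1620 and 1440 of 1443 bases coding, but not for Ntng1-208, with 1314 of 5587. A Ntng1 exon of 66 bases at chr3:109841510-109841575 was in 58.2% and 44.4% of the TPM of the coding forms compared, and in 60.02% and 50.3% in the second table. Ntng1-202, at 1.54 and 1.9 TPM in the first table, also lacks that exon and was outside this comparison. The share of the exon in all coding Ntng1 TPM was thus lower.

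The Unc5 receptors together were more abundant than the secreted netrins, while Dcc alone was below the sum of those netrins. Unc5a, a repulsive receptor of neurons, measured 33.6 and 36.9 TPM and Unc5d, known from migrating upper-layer neurons, 21.5 and 25.2. Unc5c measured 12.6 and 14.5 TPM, and Unc5b, also an endothelial receptor, 5.96 and 5.80. Together they stood at 78.1 TPM ± 6.17 (SD, n = 2), which was 4.75-fold ± 0.091 above the secreted netrins. Dcc, the attractive receptor, measured 10.2 and 10.4 TPM. The Unc5 family exceeded Dcc 7.60-fold ± 0.485 in TPM. Counts and TPM of Dcc ran in different directions, with 1913 counts in replicate 1 and 1714 in replicate 2 while its TPM was slightly higher in replicate 2. TPM also depends on the length of the transcripts the reads were assigned to, and Dcc-201, of 4855 bases, held 21.5% of the gene's TPM in replicate 1 and 31.2% in replicate 2, the rest being mostly Dcc-202 of 10323 bases.

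Coding exons of the Unc5 receptors were also used in part, and these are shown because they add to or take away from the receptor without shifting the reading frame. They lie at chr3:141786857-141786913 for Unc5c (plus strand), and at chr10:60777185-60777217 for Unc5b and chr8:28725148-28725162 and chr8:28760725-28760892 for Unc5d (minus strand). The longer Unc5d exon codes for a thrombospondin repeat of the extracellular part.
Unc5b exon of 33 bases: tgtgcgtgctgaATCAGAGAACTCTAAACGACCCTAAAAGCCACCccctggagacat
Unc5c exon of 57 bases: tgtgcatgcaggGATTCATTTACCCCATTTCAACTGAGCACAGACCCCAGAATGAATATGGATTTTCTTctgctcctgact
Unc5d exon of 15 bases: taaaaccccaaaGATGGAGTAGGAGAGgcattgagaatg
Unc5d exon of 168 bases: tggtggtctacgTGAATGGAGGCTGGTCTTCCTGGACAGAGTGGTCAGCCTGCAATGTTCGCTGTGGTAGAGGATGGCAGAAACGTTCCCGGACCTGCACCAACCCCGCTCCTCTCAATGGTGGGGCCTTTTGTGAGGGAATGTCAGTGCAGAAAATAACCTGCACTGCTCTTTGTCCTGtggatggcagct
The Unc5c exon was in 30.7% and 28.8% of the TPM of the forms compared and in 32.8% ± 0.681 (SD, n = 2) in the second table. The Unc5b exon was in 85.1% and 80.1%. The thrombospondin exon of Unc5d was in 85.3% and 83.0%, and the exon of 15 bases in 62.0% and 68.5%. The Unc5c exon was the only one of the 4 that was skipped in most of the estimated RNA, in both libraries and both tables.

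Across the 31 genes with a mean of 5 TPM or more, 30 internal coding exons could be compared between coding transcripts that include and skip them. Of these, 19 exons of 10 genes had an estimated inclusion between 10% and 90% in both tables. Exons of Dcc were not counted among the 19. They ran from 12 to 336 bases, and the length of each of the 19 was a multiple of 3. Only transcripts annotated as coding were compared, so exons whose skipping shifts the reading frame may have been left out beforehand. Inclusion was higher in replicate 1 for 15 of the 19 in the first table and for 12 in the second. Epha5 had the longest one, an exon of 336 bases. Set against Epha5-202 alone, the forms with it held 54.9% and 48.8% of the TPM. Epha5-201 (8.27 and 11.15 TPM) and Epha5-204 (9.24 and 11.81 TPM), which also lack that exon, were outside this comparison. The share of the exon in all coding Epha5 TPM was thus lower. A further Epha5 exon of 156 bases was in 53.3% and 45.5% of the TPM of the forms compared. These shares come from models that divide reads among overlapping transcripts, and the exons and transcripts shown were chosen after their values were seen.

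**Figure D2:**
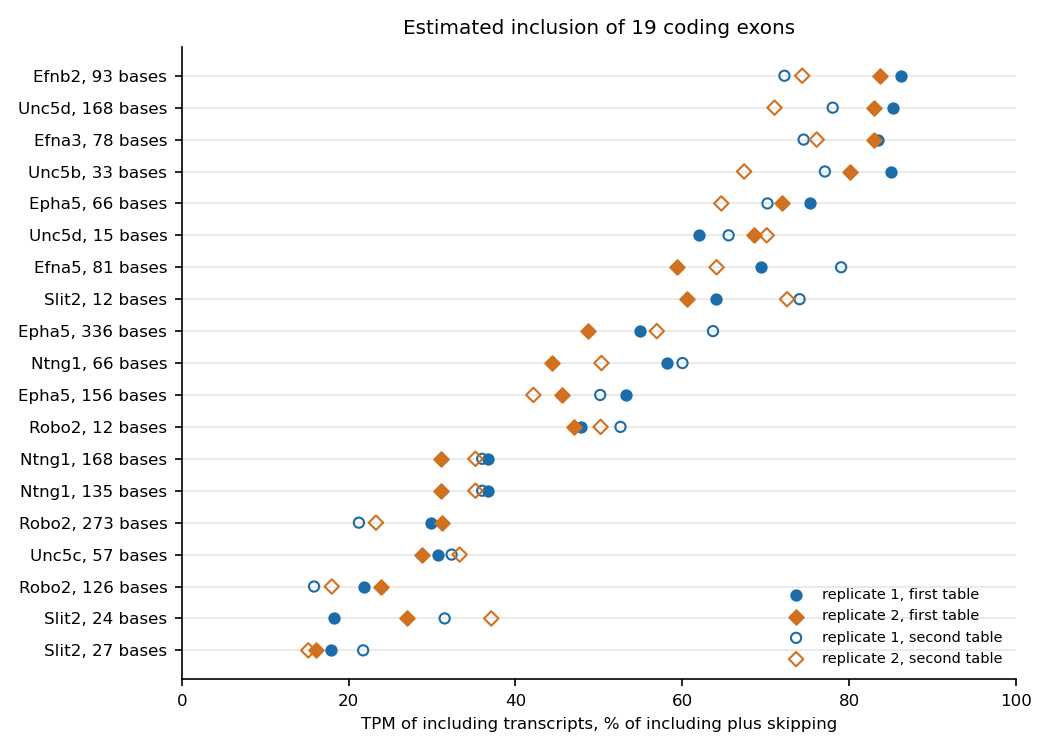
Estimated inclusion of 19 coding exons, as the TPM of transcripts with the exon in percent of the TPM of the compared transcripts with and without it. Filled symbols stand for the first table and open symbols for the second, circles for replicate 1 and diamonds for replicate 2. The Efnb2, Efna3 and Unc5b exons lie above 67% throughout, and the Slit2 exon of 27 bases lies near 17%.

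In summed TPM the EphA family exceeded the ephrin-A genes 4.59-fold ± 0.133 (SD, n = 2), and the Robo family exceeded the Slits 2.18-fold ± 0.104. The EphB family exceeded the ephrin-B genes 1.56-fold ± 0.362, but this rested on Ephb6. Without it the other 4 EphB genes summed to 53.4 TPM ± 1.30, or 0.661 ± 0.124 times the ephrin-B level. The ratios in the second table were 4.54, 2.33, 1.66 and, without Ephb6, 0.630. Levels were also set against each other in 24 pairs, each a ligand with a receptor or a netrin-G gene with its ligand. Direct binding within the pairs was not tested. In the first table the ligand was lower than its receptor in both libraries in 16 of 22 pairs and higher in both in 6. Of the 5 pairs of an ephrin-B with an EphB receptor the ligand was higher in 4. None of these pairs held Ephb6, which at 77.6 and 67.1 TPM was above every ephrin-B gene, so the 4 depend on the pairs chosen. In the second table the counts were 14 and 6, and Ntn1 with Unc5b and Ntn4 with Unc5b changed side between the libraries. In the 2 further pairs, which set a netrin-G protein over its ligand, Ntng1 was below Lrrc4c and Ntng2 above Lrrc4 in both libraries. The values are log2 ratios of TPM + 0.1, so a pair with a low member is pulled slightly towards 0. These ratios describe RNA of a whole tissue piece and do not say which cells hold either partner.

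The largest excess of a ligand was that of Efnb2 over Ephb4, an arterial and venous pair in vessels, at 3.33 and 3.39 on the log2 scale or 10.3-fold. Slit3 exceeded the endothelial Robo4 by 2.43 and 3.00 on the log2 scale. Efnb3 exceeded both Ephb2 and Ephb3, with mean log2 ratios of 1.56 and 1.56. In 2 of these pairs the receptor was among the lowest of the 40 genes, Ephb4 and Robo4. At the other end stood Ntn1, with mean log2 ratios of -3.50 against Neo1, a receptor related to Dcc, and -2.95 against Unc5a. Efna3 and Efna5 were both below Epha4, with mean log2 ratios of -2.21 and -2.27. The pair of Ntn4 and Unc5b lay at -0.09 ± 0.025 (SD, n = 2) in the first table and at 0.08 in the second, so the side on which it fell depended on the table. Ntn1 and Unc5b lay at -0.62 and -0.15 in the first table and at -0.25 and 0.12 in the second. Efnb2 and Ephb1 had the widest gap between libraries, at 0.31 and 1.02, as Efnb2 was higher and Ephb1 lower in replicate 2.

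**Figure D3:**
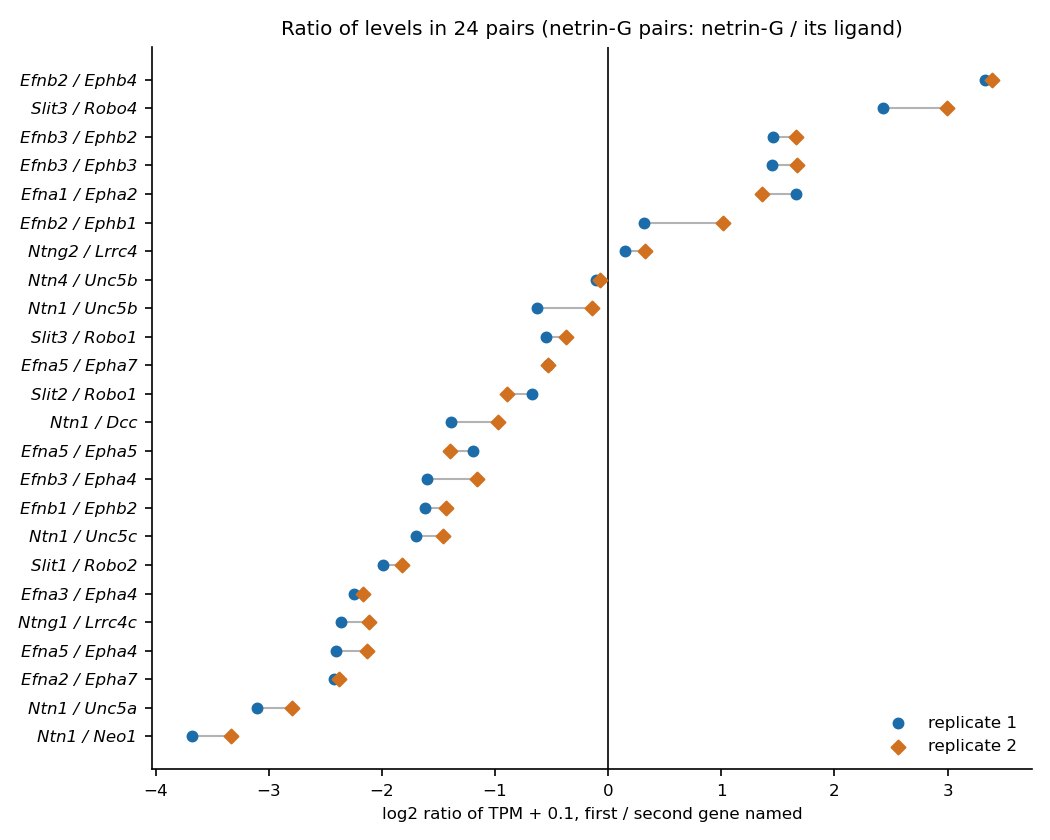
Log2 ratio of the level (TPM + 0.1) of the first gene named to that of the second for 24 pairs, the ligand over the receptor except in the 2 netrin-G pairs, where the netrin-G gene comes first, with circles for replicate 1, diamonds for replicate 2 and a vertical line at equal level. In the 17 pairs left of the line the first gene was lower in both libraries, and Efnb2 over Ephb4 is farthest to the right.

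The 40 genes have 216 annotated transcripts. For the 31 genes with a mean of 5 TPM or more, the most abundant transcript was the same in both tables for 29 and differed for Epha5 and Robo1. For Epha4 it was Epha4-201, with 57.8% ± 1.94 (SD, n = 2) of the gene's TPM, and Efnb3 has 1 transcript only. The largest Epha5 transcript in the first table was Epha5-207, annotated with a retained intron, at 9.94 and 15.0 TPM or 21.5% of the gene, while in the second table it was the coding form Epha5-204 with 23.8%. Coding transcripts held less than 80% of the TPM in 7 genes of the first table: Epha5, Epha6, Slit2, Robo3, Ntn3, Ntng1 and Ntng2. Ntng2 was the lowest, with 48.9% in coding transcripts and 49.2% in the second table. There were 11 such genes in the second table, these 7 with Efnb1 (57.9%), Ephb6 (74.6%), Slit3 (78.2%) and Unc5c (77.6%).

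Transcripts with a retained intron held 5.11% of the TPM of these 31 genes in replicate 1 and 7.04% in replicate 2. Of the 17 genes with any such TPM, 13 had a higher share in replicate 2, among them Epha5 at 27.2% and 33.6%, Epha6 at 21.9% and 27.1%, and Slit2 at 14.7% and 25.7%. In the second table the shares were 5.28% and 5.92%, and 11 of 16 genes were higher in replicate 2. Of 7 short unclassified genes that overlap one of the 40 on the same strand with 50 counts or more, 3 were higher in replicate 2 in the exact binomial test described next: within Unc5d, Svet1 had 67 and 124 counts and Gm45652 had 43 and 115, and within Efnb2, E230020D15Rik had 96 and 165. The other 4 did not pass it, and of all 1362 genes of that class tested 8.44% were higher and 0.514% lower. The part of unspliced RNA in these values was not tested.

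**Figure D4:**
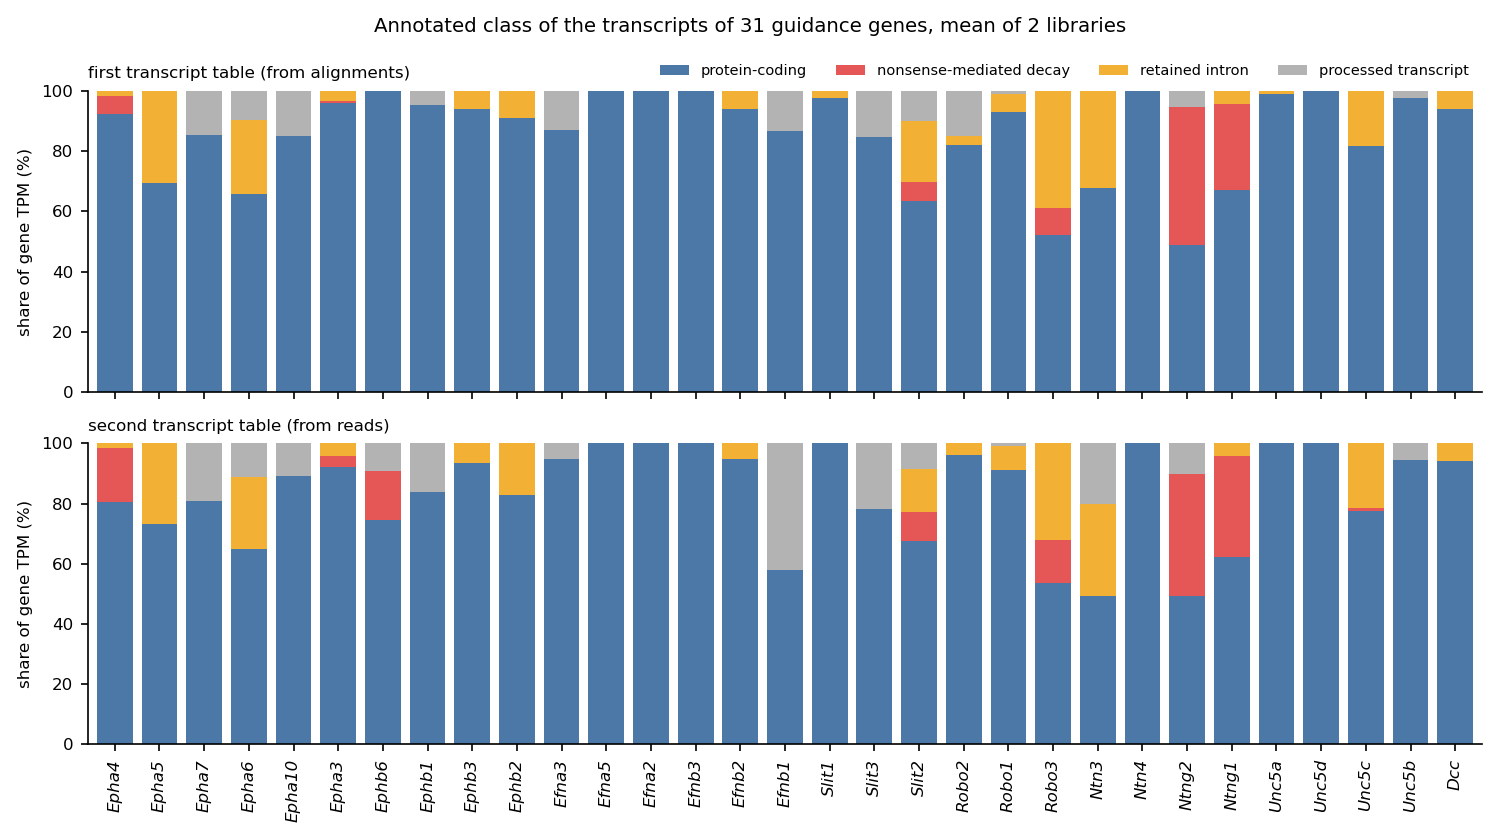
Share of each gene's TPM by annotated class of transcript for 31 genes, as the mean of 2 libraries, in the first table (top) and the second (bottom). Robo3, Epha5 and Ntn3 show the largest retained-intron shares, and Ntng2 and Ntng1 the largest shares annotated for nonsense-mediated decay.

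The 2 libraries were then compared gene by gene, to show how far these levels vary between 2 samples of one group. At an adjusted p of 0.05 in a two-sided exact binomial test on counts, 19 of the 40 genes differed, 15 higher and 4 lower in replicate 2. Of all 18887 genes tested 20.3% differed, 8.88% higher and 11.4% lower in replicate 2. The test covers counting error only and compares these libraries, not conditions, and with 2 samples no exact test over samples can give a p below 0.5. The share of calls rises with depth: among genes with a mean of 1000 to 3000 counts 27.6% differed (12.3% higher and 15.3% lower), against 10 of 17 guidance genes in that range (8 higher and 2 lower). Among genes with a mean of 3000 counts or more 55.2% differed (9.18% higher and 46.0% lower), against 4 of 6 guidance genes, 2 in each direction. At 100 to 1000 counts 16.4% differed (10% higher and 6.37% lower), against 5 of 12 guidance genes, all 5 higher. Below 100 counts 7.7% differed, against 0 of 5 guidance genes. The median log2 ratio of the 40 genes was 0.07 and that of all genes 0.00. None of the 19 genes was 1.5-fold apart, while 613 of all genes were. With edgeR at an assumed dispersion of 0.01, which allows for some spread between animals, 0 of the 40 genes differed, and 0 also at an unadjusted p under 0.05, while 0.964% of all genes did. By total gene counts or spike-in counts in place of trimmed-mean scaling, 23 of the 40 differed (20 higher and 3 lower), while the split over all genes moved from 1678 higher and 2152 lower to 2733 and 1145 by total counts and 2570 and 1229 by spike-ins.

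Many of these genes are long: 20 of the 40 lie among the longest 25% of protein-coding genes with 10 counts or more in a library, which span over 62.6 kb, with Dcc at 1097 kb and Epha6 at 952 kb the longest. Among those long genes 11.8% were higher and 20.7% lower in replicate 2, against 8 and 3 of the 20 guidance genes.

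All 3 ephrin-B genes were higher in replicate 2. Efnb2 had 2474 counts in replicate 1 and 3145 in replicate 2, or a log2 ratio of 0.35 with a counting SE of 0.0388, with an adjusted p of 1.49e-17 in the exact binomial test. Efnb3 had 2612 and 2999 counts and a log2 ratio of 0.20, and Efnb1 had 265 and 335 and a log2 ratio of 0.32. In the second table Efnb1 did not pass the test (adjusted p = 0.159 in the same exact test). None of the 5 ephrin-A genes passed the test, with log2 ratios from -0.17 to 0.08, but Efna5 did in the second table, lower in replicate 2 by a log2 ratio of -0.15 (adjusted p = 0.0224 in the same exact test). Ephb4, the receptor paired with Efnb2 in vessels, had 250 and 314 counts and was also higher, by 0.31 on the log2 scale, but not when genes of low count were kept (adjusted p = 0.0559 in the same exact test). Of 7 mural cell markers 1 was higher and 1 lower, of 8 endothelial markers 1 was higher and 1 lower, and of 7 fibroblast markers 3 were higher, with a summed level of 129 and 160 TPM. The 8 choroid plexus markers were all higher, and the part of these cell types in the ephrin-B difference was not tested.

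Of the 4 most abundant receptors Epha4 and Ephb6 were lower in replicate 2, Epha5 was higher and Robo2 did not pass the test. Epha4 had 12264 counts in replicate 1 and 10072 in replicate 2, or a log2 ratio of -0.28 with a counting SE of 0.0194, with an adjusted p of 4.1e-46 in the exact binomial test. Ephb6 had 4762 and 3709 counts, a log2 ratio of -0.36 ± 0.0316 and an adjusted p of 3.76e-28 in that exact test, and Ephb1 had 2112 and 1737 with -0.28. Ephb2 and Ephb3 did not pass the test, at -0.07 and -0.04, so 4 of the 5 EphB genes had ratios below 0. In the other family 6 of the 9 EphA receptors were higher in replicate 2, namely Epha3, Epha5, Epha6, Epha7, Epha8 and Epha10, with log2 ratios from 0.18 to 0.27, while Epha1 and Epha2, at -0.30 and -0.03, did not pass the test. Epha7 had 2310 and 2625 counts, Epha6 1828 and 2156, Epha10 976 and 1116, Epha3 633 and 748, and Epha8 388 and 472. Epha8 did not pass the test in the second table (adjusted p = 0.0685 in the same exact test). Epha5 was the most deeply sequenced of them, with 5043 and 5840 counts and a log2 ratio of 0.21 ± 0.0277. Of 9 striatal markers 8 were lower in replicate 2, of 10 myelin markers all 10, of 8 markers of layer 6 and subplate 5, of 9 excitatory neuron markers 7, of 9 astrocyte markers 6 (with 2 higher), of 8 oligodendrocyte precursor markers 5, of 8 microglia markers 4 and of 9 interneuron markers 2. Of the excitatory neuron markers 7 had a mean of 3000 counts or more, and 6 of those were lower, where 46.0% of all genes were. All 8 markers of layer 6 and subplate were below that depth, where 6.62% of all genes were lower. Their part in the lower level of Epha4, Ephb6 and Ephb1 was not tested.

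Of the Slit and Robo genes Slit3 and Robo3 passed the test. Slit3 had 2110 and 2416 counts, with a log2 ratio of 0.20, and Robo3 had 1444 and 1722 counts with a log2 ratio of 0.25. Robo2, with 8168 and 8284 counts, had a log2 ratio of 0.02 ± 0.0225 (counting SE) and did not pass it. Robo1, Robo2 and Slit1 passed the test under scaling by total counts or by spike-ins. In the netrin group 3 genes were higher in replicate 2. Unc5d had 3171 and 3636 counts and a log2 ratio of 0.20, Unc5c had 1968 and 2177 and a ratio of 0.15, and Ntng1 had 841 and 960 and a ratio of 0.19. No secreted netrin passed the test. Ntn1 and Unc5a, with log2 ratios of 0.21 and 0.08, passed it under total counts (adjusted p = 0.020 and 0.00264 in the same exact test) and under spike-ins (0.0239 and 0.00473). Dcc was lower, with a log2 ratio of -0.16 ± 0.048, though its TPM was not, and it did not pass the test under scaling by total counts or by spike-ins.

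**Figure D5:**
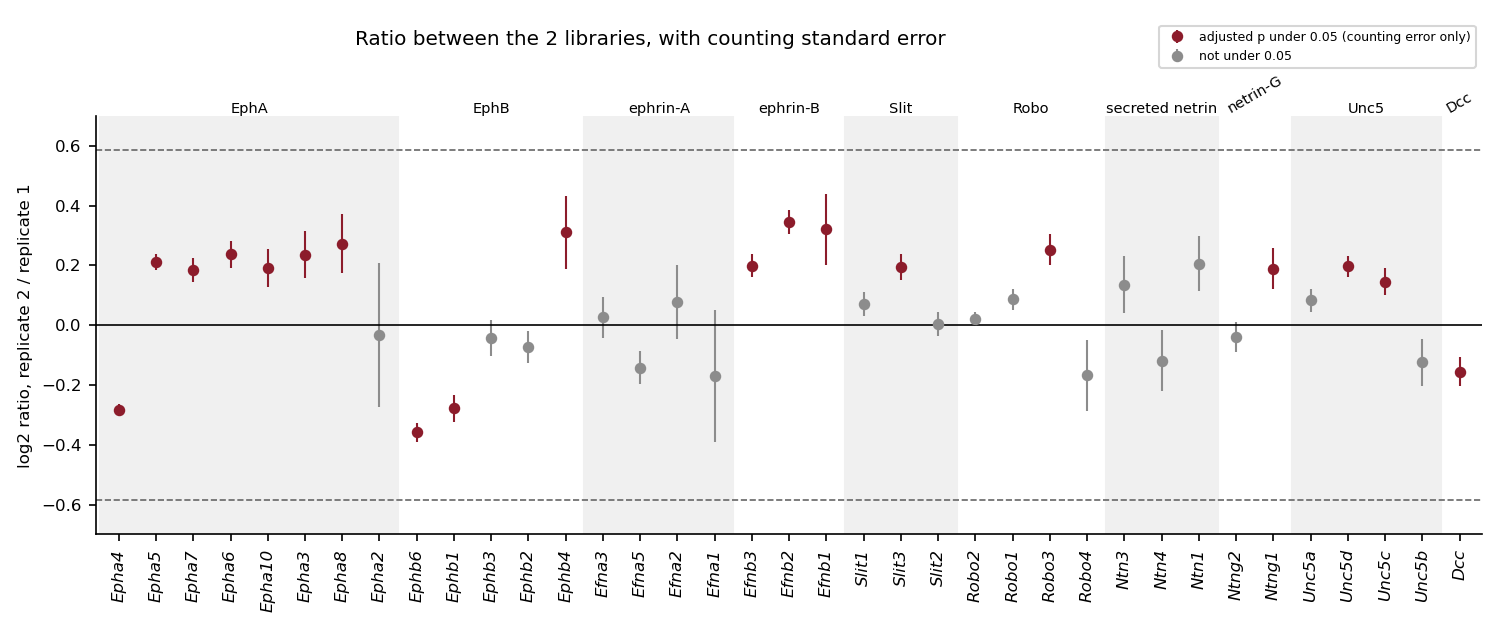
Log2 ratio of replicate 2 to replicate 1 in normalised counts for the 37 genes with 100 counts or more over both libraries, with bars for the counting standard error, dark points for genes with an adjusted p under 0.05 and dashed lines at 1.5-fold. All 3 ephrin-B genes lie above 0, Epha4, Ephb6 and Ephb1 lie near -0.3, and no gene reaches the dashed lines.

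Proteins that act with these receptors were abundant. Of 68 such genes in 3 lists, none of them among the 40, 67 reached 1 TPM, and the exception was Draxin, a secreted modulator of netrin signals, with 45 and 61 counts. In the Eph list of 30 genes the highest mean levels were those of Chn1 (587 TPM), the Rac regulator that acts below Epha4, the adaptor Anks1b (219 TPM), the exchange factor Kalrn (212 TPM) and the kinase Pak1 (134.4 TPM). Of the 20 genes in the Slit and Robo list Nell2, a ligand of Robo3, was highest at 276 TPM, followed by the small GTPases Cdc42 at 194 and Rac1 at 193 and by Srgap3 at 93.4. In the netrin list of 27 genes the ubiquitin ligase Trim9 (195 TPM), the lipid transfer protein Pitpna (165 TPM) and the netrin-G ligand family member Lrrc4b (155 TPM) were among the highest. Chn1 was thus above every one of the 40 guidance genes in TPM.

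In the Eph list 3 were higher and 12 lower in replicate 2, in the Slit and Robo list 1 and 5, and in the netrin list 2 and 9, or 6 and 23 over the 68 genes. Over all genes tested 8.88% were higher and 11.4% lower. Of the 38 partner genes with a mean of 3000 counts or more 3 were higher and 20 lower, or 7.89% and 52.6%, against 9.18% and 46.0% of all genes at that depth. Of the other 30 partner genes 3 were higher and 3 lower. The median log2 ratio of all 68 partner genes was -0.05, against 0.00 for all genes tested. Tiam1, an exchange factor for Rac, had the largest excess in replicate 2, with a log2 ratio of 0.45 ± 0.0293 (counting SE), and Rasa1, a Ras regulator, had 0.23. Ngef, the exchange factor bound by Epha4, was lower by a log2 ratio of -0.22 and the adaptor Nck2 by -0.23. In the other lists Srgap3 (0.12), Trim67 (0.26) and Trio (0.06) were higher, and Ext1 (-0.18), Lrrc4 (-0.18) and Pak1 (-0.15) were lower, all as log2 ratios. Neo1, the receptor related to Dcc, measured 50.2 and 53.5 TPM with a log2 ratio of 0.00 ± 0.0275.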

How the data were processed

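Total RNA of 2 libraries of 1 group was quantified by the authors. Per the README text deposited with each sample, the gene table and the first transcript table, with expected (estimated) counts, TPM and the percent of a gene's TPM in each transcript, come from a transcriptome alignment, and the second transcript table, with estimated counts and TPM, from the reads, both on mm10 with GENCODE M21. The sources used here do not name the tools. Totals were 33362704 and 32013997 gene counts, spike-ins took 0.359% and 0.361% of all counts, and numbered rows that name no gene, which were left out, 1.49e-05% and 1.51e-05%.

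From these deposited files, counts were rounded and compared between libraries by a two-sided exact binomial test (scipy 1.17.1) with trimmed-mean (TMM) library sizes from edgeR 4.0.16, for 18887 genes with 10 counts or more in 1 library, adjusted by Benjamini-Hochberg over all of them. The procedure was tested on simulated counts drawn with counting error alone. Such data cannot show how it behaves with spread between samples. Ratios are log2(CPM + 0.5) differences with a counting standard error. Levels are TPM; shares, pair ratios and exon inclusion are descriptions with SD over 2 libraries. Alternatives were DESeq2 1.42.0 size factors, total or spike-in scaling, no count filter, the second table, other thresholds and pseudocounts, either library alone, and edgeR with an assumed dispersion. Genes with a mean of 1 TPM or more were named with both values, and all that differed with their counts. From each partner list the 4 highest genes and up to 2 that differed most in each direction were named, except 1 gene that is not reported here. The transcripts of the 6 highest genes were named too, with those whose leading transcript is not coding or differs between tables. Sequences are GENCODE M21 transcripts on mm10. The members, lists and tests were chosen with earlier results of these data known.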

Additional observations from a re-analysis of the deposited data

How the results depend on the processing

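The count of 19 differing genes stayed between 18 and 23 under DESeq2 size factors, total or spike-in scaling, no count filter and the second transcript table, and 17 or 18 of the 19 were called again in each except DESeq2, where all 19 were. It was 0 with edgeR at an assumed dispersion of 0.01, a setting that still called 182 of all 18887 genes tested. Calls lost elsewhere were Dcc with total (log2 -0.10) or spike-in scaling, Ephb4 without a filter, and Epha8 and Efnb1 in the second table. Calls gained were Slit1, Robo1, Robo2, Ntn1 and Unc5a with total or spike-in scaling, and Efna5 in the second table. Summed family levels depend on what TPM is shared over. In the second table, which lacks part of the rows of the first, they were 375 TPM for EphA, 210.1 for EphB, 82.6 for ephrin-A, 126 for ephrin-B, 97.0 for Slit, 226 for Robo, 28.9 for secreted netrins, 99.7 for netrin-G, 109 for Unc5 and 14.7 for Dcc. Rescaled over protein-coding genes they were 512, 246, 112, 161, 133.6, 290.3, 32.1, 122, 153 and 20.1 in the same order. The order of the families by level kept EphA, Robo and EphB first under each. The log2 ratio of Ntn4 to Unc5b turned from -0.09 to 0.079 in the second table, and there this pair and Ntn1 with Unc5b lay on different sides in the 2 libraries. There, 12 other pairs moved by more than their SD and kept their side, most of all Efna1 to Epha2, from 1.51 to 0.29, and 6 did so with a pseudocount of 1. The counts of detected genes, of pairs in which the first gene is lower and of shared leading transcripts stayed within 1.5 times under the other settings. No paired analysis was possible because both libraries belong to 1 group. Depth limits Epha1, Efna4 and Ntn5, with at most 27 counts, for which only large differences could pass the test and none did.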
